A study of Mus musculus with 4 samples.

Results

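Immediate early genes, Krüppel-like factors (Klf) and dual specificity phosphatases (Dusp) were examined after siRNA against Men1 in N2a (Neuro2a), a neuroblastoma cell line of the mouse. The members were picked by a rule on gene names: Fos, Fosb, Fosl1, Fosl2, Jun, Junb, the Egr, Ier2, Ier3, Ier5, Dusp and Klf genes, Atf3, Arc, Npas4 and Myc, with 1 Klf gene left out. That rule was set with earlier results of these data known, so shares of members beside those of all genes are descriptions only. They came to 78 of the 44170 targets on the array and to 53 of the 24171 named genes. There were 24 Dusp genes, 13 Klf genes and 16 others. Cells were grown in DMEM with 10% FBS and transfected either with a scramble siRNA, which is the control, or with an siRNA against Men1, which encodes menin, a scaffold of histone methyltransferase complexes. Each group had 2 arrays. The labels give neither the time after transfection nor the siRNA sequences, nor whether the replicates are separate cultures. The p-values therefore reflect only how far these 4 arrays differ, and that spread may be technical.

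Immediate early genes are transcribed within minutes of a growth factor, stress or calcium signal, without new protein synthesis. The signal usually reaches them through a MAP kinase cascade (ERK, JNK or p38) and through the factors SRF and CREB. Their products include the AP-1 proteins (Fos and Jun dimers), the zinc finger Egr factors and several Klf factors, which bind GC-rich or CACC sequences. Many Dusp proteins remove the activating phosphates from MAP kinases, and several of their genes are induced by the cascade that they switch off. In neurons, Arc, Npas4 and the Egr genes are widely used as markers of recent electrical activity.

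Promoter sequence was available for 40 of the 53 members in the RefSeq table of build GRCm38.p6, out of 32851 promoters in all. The 250 bases before the start are printed for the 3 members with the smallest unadjusted p that had a promoter there and an intensity of at least 100 on both arrays of a group, because the values below turn on them. They are written 5′ to 3′ in the direction of transcription, which is the minus strand for each. Where a gene had several starts, only the first one listed was printed. Capitals mark matches on either strand to the core of the cyclic AMP response element (TGACG), the GC box (GGGCGG), the CACC box (CCACCC) or the Egr site (GCGNGGGCG), the last of which can overlap a GC box. The Klf4 stretch lies at chr4:55532476-55532725, the Klf12 stretch at chr14:100149797-100150046 and the Junb stretch at chr8:84978749-84978998.
Klf4: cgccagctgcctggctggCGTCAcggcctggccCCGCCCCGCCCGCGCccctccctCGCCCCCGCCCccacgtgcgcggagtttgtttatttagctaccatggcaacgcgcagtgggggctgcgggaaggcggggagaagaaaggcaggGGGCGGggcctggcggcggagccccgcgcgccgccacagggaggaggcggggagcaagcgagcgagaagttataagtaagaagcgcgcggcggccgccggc
Klf12: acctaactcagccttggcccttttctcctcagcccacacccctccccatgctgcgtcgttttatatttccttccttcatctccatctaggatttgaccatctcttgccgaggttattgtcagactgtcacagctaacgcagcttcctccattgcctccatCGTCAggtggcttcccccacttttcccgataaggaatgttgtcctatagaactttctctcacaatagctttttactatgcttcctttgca
Junb: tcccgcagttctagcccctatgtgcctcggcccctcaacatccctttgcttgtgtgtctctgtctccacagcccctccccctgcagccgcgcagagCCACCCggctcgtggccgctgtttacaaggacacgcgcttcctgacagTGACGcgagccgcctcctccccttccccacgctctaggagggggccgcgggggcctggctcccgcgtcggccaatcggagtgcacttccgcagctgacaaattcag

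The Klf4 stretch was 74.0% G and C and held 4 GC boxes and 2 Egr sites, whereas Klf12 was 48.0% and held neither. The Junb stretch was 66.4% G and C with 1 CACC box. All 3 held 1 core of the cyclic AMP response element, 232 bases before the start in Klf4, 90 in Klf12 and 106 in Junb. Over the 250 bases that core was present in 17 of the 40 members (42.5%) and in 17.8% of all promoters. A GC box was present in 30 members (75.0%, against 32.7% of all promoters), a CACC box in 18 (45% against 28.1%) and an Egr site in 9 (22.5% against 4.7%). The full element TGACGTCA was in 2 members, Dusp1 and Dusp8 (5.0% against 1.5%), an AP-1 site (TGANTCA) in 1, Dusp13 (2.5% against 6.7%), and the CArG box bound by SRF in 3, Dusp5, Egr2 and Klf8 (7.5% against 1.5%). A member counted when any of its starts had the match, whereas the share of all promoters counts every start by itself. Members with several starts therefore had more chances of a match. Member promoters had a median of 64.2% G and C, against 52.4% for all promoters, and the shares were not compared at equal composition. These are matches of letters in 1 window per start and not measured binding sites.

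Values are intensities on a linear scale, and an intensity of 100 was taken as well above background. Array medians lay between 145.9 and 151.2 and the random control probes between 42.8 and 52.3. At its brighter target Men1 itself read 6985 and 6222 in the scramble siRNA arrays against 2764 and 4109, so both knockdown arrays were below both controls (limma adjusted p = 0.314). Its other target read 3843 and 3824 against 2989 and 3802. Of 11 pan-neuronal markers measured, none was under 100 on all 4 arrays. Among the sympathoadrenal neuroblast markers, the secretory granule genes Chga and Chgb read at least 3178 and 3177, while Hand1 was under 100 on all 4 arrays and Th read between 95.01 and 141.6. Gata2 of the same list fell from 6002 and 3452 to 83.9 and 83.5 (limma adjusted p = 0.0281). The replicate numbers are not settled. The value table of the series holds the scramble siRNA values of all 45 member targets that it lists under the other replicate number, and the image name inside the file of Men1 siRNA replicate 1 carries the number 2, while that of Men1 siRNA replicate 2 names no group. The groups and numbers used here are those of the labels.

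No member passed the threshold, which a log2 change of 2 seldom reached in simulated data. In limma, with group as the only term and Benjamini-Hochberg adjustment over all 24171 genes, 0 of 53 members had an adjusted p under 0.05, against 0.389% of all genes (0.0372% higher and 0.352% lower). At an unadjusted p under 0.05 there were 11 members, 5 higher and 6 lower with Men1 siRNA, which is 20.8% of the members against 14.2% of all genes. Higher were Klf12, Klf6, Klf1, Klf14 and Dusp27, the last pair under 100 on all arrays, a share of 9.43% against 6.47%, and lower were Klf4, Klf3, Klf15, Junb, Ier3 and Dusp11, 11.3% against 7.74%. Without scramble siRNA replicate 1 the log2 changes of Klf4, Klf12 and Junb were −2.38, 1.63 and −0.86. Without Men1 siRNA replicate 2 they were −2.32, 2.21 and −1.73. Klf3, Klf6 and Klf1 had −0.69, 0.65 and 0.64 without scramble siRNA replicate 1, against −0.99, 0.90 and 1.36 with all arrays. The groups did not overlap for 27 members (50.9%), close to the 47.5% of all genes. Of these 17 were higher with Men1 siRNA (32.1% against 25.8%) and 10 lower (18.9% against 21.7%). A log2 change of at least 1 was met in 2 members upward, Klf12 and Klf1 (3.77% against 6.3%), and in 2 downward, Klf4 and Junb (3.77% against 8.29%). The median log2 change, Men1 siRNA minus scramble siRNA, was 0.20 over the members and 0.06 over all genes.

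**Figure D1:**
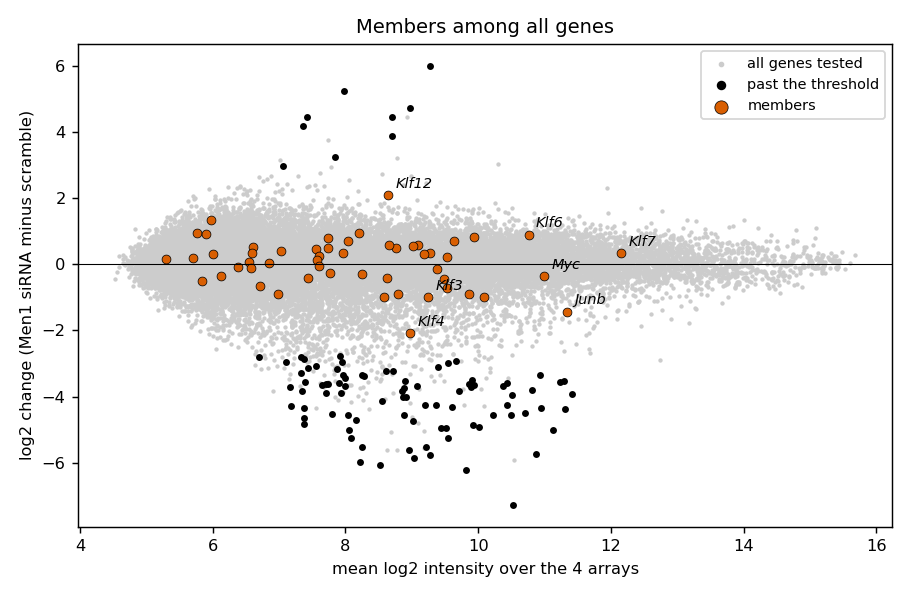
Log2 change against mean log2 intensity over the 4 arrays, for all 24171 genes (grey), the 94 past the threshold (black) and the 53 members (orange). Klf12 at 2.09 and Klf4 at −2.08 lie at the edges of the members, and no member is among the black points.

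The 3 families had different medians, and the difference between them was not tested. Of the 13 Klf genes 9 were positive (median log2 change 0.34), of the 24 Dusp genes 16 were positive (median 0.25), and of the 16 others 6 were positive (median −0.32). These counts were the same after cyclic loess and median scaling, and quantile scaling made it 17 Dusp genes. Over all genes 54.5% were positive. In all, 34 members reached an intensity of 100 on all 4 arrays, 14 on some arrays, and 5 on none (Dusp13, Dusp21, Dusp27, Klf14 and Klf17), so that the signs of these 5, which the family counts include, are those of values near background.

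**Figure D2:**
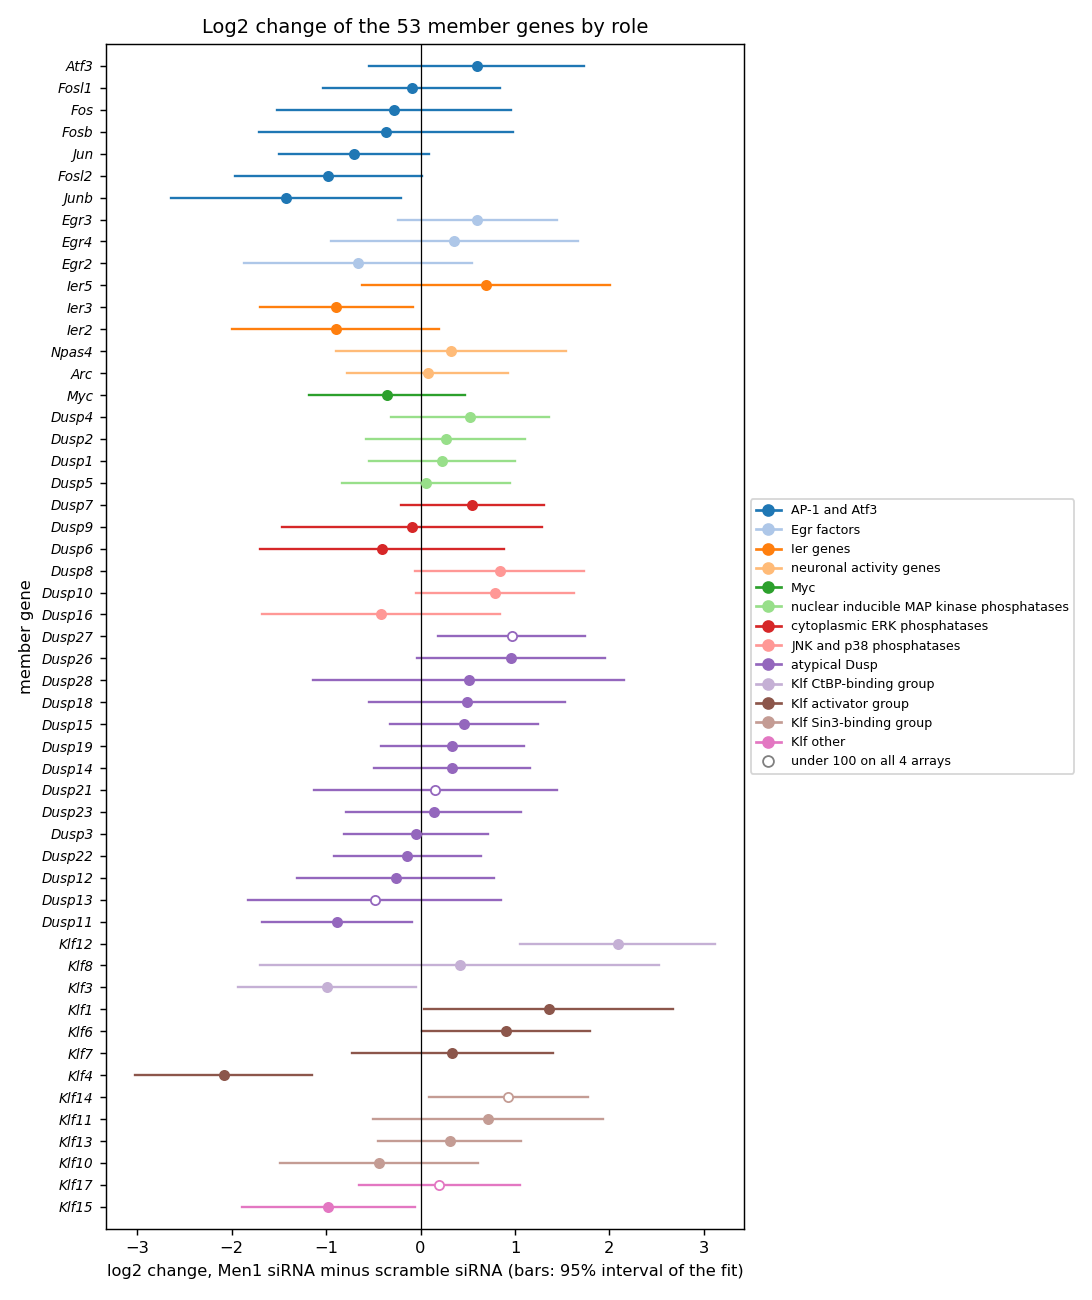
Log2 change of each member gene (points) with the 95% interval of the fit (bars), grouped by role, with open points for the 5 genes under 100 on all arrays. Intervals leave out 0 for the 11 members with an unadjusted p under 0.05, and Klf12 and Klf4 stand farthest from 0.

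The Klf proteins share 3 zinc fingers at the end of the protein and differ in the partners bound by the rest of it. Klf4, an activator known for skin and gut epithelium and as a reprogramming factor, read 846 and 1272 in the scramble siRNA arrays against 208 and 288. Both Men1 siRNA arrays lay far below both controls. The log2 change was −2.08 ± 0.38 (SE, n = 2 and 2 arrays; 95% interval −3.02 to −1.15), 0.236 times the control level, without passing (limma adjusted p = 0.113). Its target covers the transcript at chr4:55540771-55545212 on MM9. With a prior that follows intensity the adjusted p was 0.0155, a setting in which 2.94% of all genes passed. In bulk RNA such as this, fewer cells of a type and less RNA per cell cannot be told apart.

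Klf12, a repressor that recruits the corepressor CtBP, had the largest positive change of the members. Its intensities were 141 and 267 in the controls against 902 and 759, so that the lower knockdown array was well above the higher control. The log2 change was 2.09 ± 0.41 (SE, n = 2 and 2; 95% interval 1.06 to 3.12), 4.26 times the control level, without passing (limma adjusted p = 0.135). The trended prior gave an adjusted p of 0.0281. Its single target spans chr14:100269861-100549015 on MM9.

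Klf3, another CtBP-recruiting repressor, was lower with Men1 siRNA at each of its 4 targets. The brightest read 1051 and 697 against 509 and 365, and the next 511 and 710 against 323 and 264. At the other two the controls read 440 and 318, and 215 and 328, while all Men1 siRNA values were under 100, at 89.1 and 52.0, and at 66.3 and 67.1. The groups did not overlap at any target of this gene. The log2 change was −0.99 ± 0.38 (SE, n = 2 and 2) at the brightest target (limma adjusted p = 0.332) and −1.04 ± 0.36 at the next. The dim ones were at least 3.74-fold and at least 2.65-fold lower, with adjusted p-values of 0.0915 and 0.111 when every target was its own feature in limma, the smallest of any member target. The mean of the 4 targets gave −1.62 (adjusted p = 0.116). The targets start between 65194761 and 65207159 on chromosome 5 of MM9 and share most of their span, so they are not replicates of each other.

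Klf8, the last of the CtBP-binding group, showed no stable level. The controls read 54.8 and 232, and the knockdown arrays 265 and 85.2, so its replicates differed by more than its groups.

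Among the activators, Klf6, an injury- and serum-inducible gene, read 1066 and 1516 against 2084 and 2717. Both Men1 siRNA arrays were above both controls, with a log2 change of 0.90 ± 0.36 (SE, n = 2 and 2; limma adjusted p = 0.345). Klf7, a neuronal factor that promotes axon growth, was positive at all 4 targets, from 0.22 to 0.71, and the groups overlapped at the brightest of them, which had −0.11 without scramble siRNA replicate 1. Klf1, the erythroid activator, read 23.8 and 64.5 against 108 and 93.6 and so was near background throughout. It had a fitted log2 change of 1.36 ± 0.53 (SE, n = 2 and 2; adjusted p = 0.34), but against an intensity of 100 it was at least 1.005-fold higher, and the log2 change was 0.64 without scramble siRNA replicate 1. All 6 red cell markers measured were positive too (median 0.90), and their part in the Klf1 value was not tested.

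Of the group that binds the corepressor Sin3, Klf11 read 132 and 321 against 345 and 329, and Klf13 read 508.1 and 532.3 against 627 and 661. Neither pair of groups overlapped, and both were far from the threshold in limma, with log2 changes of 0.71 ± 0.49 and 0.31 ± 0.30 (SE, n = 2 and 2). Klf11 had 0.07 without scramble siRNA replicate 1. Klf10, which is induced by TGF-beta, read 648 and 1071 against 490 and 775, and its groups overlapped. Klf14 read 41.4 and 45.5 against 69.7 and 97.9, all under 100. Klf15, a regulator of glucose and amino acid metabolism, read 553 and 518 against 346 and 214. Its log2 change was −0.98 ± 0.37 (SE, n = 2 and 2; limma adjusted p = 0.328), with both Men1 siRNA arrays lower, and it was −0.63 without Men1 siRNA replicate 2. Klf17 read between 41.1 and 60.5 on the 4 arrays.

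**Figure D3:**
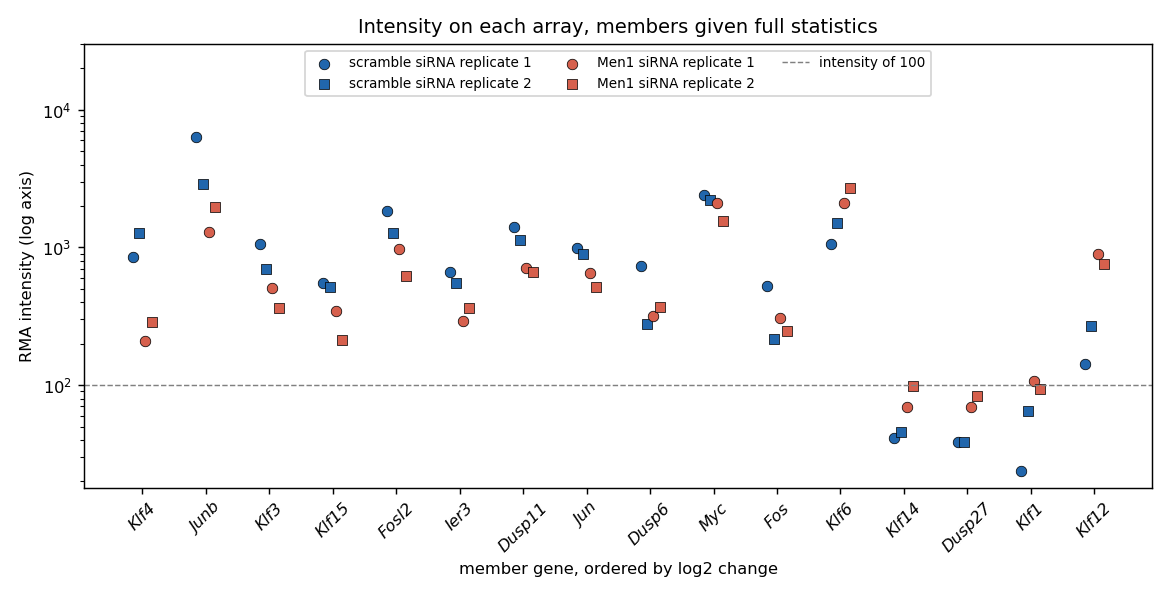
Intensity (log axis) on each of the 4 arrays for the 12 members with the smallest unadjusted p and for Fos, Jun, Myc and Dusp6. Scramble siRNA arrays are blue and Men1 siRNA arrays red, and the groups are clearly apart for Klf4 and Klf12, while Fos and Dusp6 are high on scramble siRNA replicate 1 alone.

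Markers of other cell types moved on the same arrays as Klf4, Klf3, Klf15 and Junb. All 10 epithelial markers were measured, 9 negative, with a median log2 change of −3.55 and a summed intensity of 26710 and 17696 with scramble siRNA against 1508 and 2474 with Men1 siRNA. Of them 4 fell past the threshold in limma, among them Krt8 and Cdh1, and none was under 100 on all arrays. Of 15 fibroblast markers 13 were negative and 4 fell, with sums of 72249 and 67968 against 21888 and 26368. All 10 endothelial markers were negative and 1, Emcn, fell, with sums of 11003 and 7390 against 2272 and 2376. Adipocyte markers went the other way, with sums of 729 and 552 against 7672 and 5574, and the 11 pan-neuronal markers were all positive, with sums of 88880 and 110186 against 140345 and 137942. With any 1 array left out, 0 of all genes passed the threshold in limma, these markers included, while 2105 to 3356 had an unadjusted p under 0.05. The part of these cell types in the values of Klf4, Klf3, Klf15, Junb and Klf12 was not tested.

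No AP-1 member passed the threshold. Of the 7, 6 had a negative log2 change (median −0.36), while 54.5% of all genes were positive. Groups did not overlap for 3, against 47.5% of all genes. Those 3 were all lower. Of all genes tested, 21.7% were lower without overlap and 25.8% were higher without overlap. Fos and Fosb turned positive, at 0.36 and 0.38, without scramble siRNA replicate 1. Junb, an AP-1 subunit that often restrains Jun, read 6326 and 2867 in the controls against 1286 and 1953. The lower control was above both knockdown arrays, and the controls themselves differed by 1.14 on the log2 scale. The log2 change was −1.43 ± 0.49 (SE, n = 2 and 2; limma adjusted p = 0.298), and −0.86 without scramble siRNA replicate 1. Its other target read 3706 and 1863 against 1158 and 1493, a log2 change of −0.999 ± 0.44. Both targets lie in the same transcript at chr8:87500808-87502594 on MM9.

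Fosl2, which encodes the AP-1 subunit Fra-2, read 1838 and 1272 against 982 and 616. Every Men1 siRNA value was below the controls, with a log2 change of −0.98 ± 0.40 (SE, n = 2 and 2; limma adjusted p = 0.355) that became −0.64 without Men1 siRNA replicate 2. Jun read 998 and 894 against 648 and 518 at its brighter target, with −0.71 ± 0.32 (SE, n = 2 and 2; adjusted p = 0.397). The other Jun target read 456 and 920 against 734 and 692, with a log2 change of 0.14 and overlapping groups, so that the targets of Jun disagree. Fos, the partner of Jun and the classical immediate early gene, read 525 and 215 against 309 and 248. Only 1 control array was high, and the log2 change of −0.28 ± 0.50 (SE, n = 2 and 2; limma adjusted p = 0.83) became 0.36 without it.

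Fosb read 133 and 47.4 against 59.2 and 64.6, and Fosl1 read 77.6 and 126 against 102 and 84.4. Both were near background, and their groups overlapped. Atf3, a stress-induced factor that pairs with Jun proteins, read 548 and 359 against 937 and 478 at its brighter target (log2 change 0.59 ± 0.46, and 0.90 without scramble siRNA replicate 1). The dimmer Atf3 target read 199 and 93.0 against 42.8 and 58.5 and was at least 1.36-fold lower, so its targets have opposite signs.

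The Egr factors showed no common direction. Egr3 read 385 and 276 against 474 and 517, with 0.60 ± 0.34 (SE, n = 2 and 2), and its second target gave 0.49. Only its brighter target had groups that did not overlap. Egr2, known for myelination and hindbrain patterning, read 186 and 93.4 against 63.3 and 109, and Egr4 read 139 and 52.6 against 98.9 and 122. In both of these the controls differed from each other by more than the groups did, by 0.99 and 1.40 on the log2 scale.

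Ier3, a gene that modulates apoptosis and NF-kB signalling, read 660 and 550 against 291 and 361. Both Men1 siRNA arrays were lower, with a log2 change of −0.90 ± 0.33 (SE, n = 2 and 2; limma adjusted p = 0.315). Ier2 read 207 and 145 against 129 and 67.1 (log2 change −0.90 ± 0.44), also without overlap. Ier5 read 380 and 1034 against 1047 and 986, so only scramble siRNA replicate 1 stood apart, and its log2 change of 0.70 became −0.03 without that array.

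The neuronal activity genes were near background. Arc, which controls glutamate receptor trafficking at synapses, read 77.2 and 108 against 87.7 and 105 at its brighter target, and Npas4, a calcium-induced factor of neurons, read 74.1 and 44.3 against 49.9 and 103. Neither separated the groups there. Myc, which drives growth and ribosome production, read 2413 and 2204 against 2097 and 1554. Its groups did not overlap, but the log2 change was only −0.35 ± 0.33 (SE, n = 2 and 2; limma adjusted p = 0.668).

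Scramble siRNA replicate 1 stood apart among these genes. The 2 control arrays differed by a median of 0.53 on the log2 scale over the members, against 0.40 over all genes, while the 2 Men1 siRNA arrays differed by 0.32 against 0.39. A difference of at least 1 between the controls was met in 11 members (20.8%, against 14.3% of all genes), and between the Men1 siRNA arrays in 5 (9.43% against 15.3%). In the controls Fosb, Egr4, Dusp6, Fos and Junb were the 5 higher in replicate 1, and Klf8, Dusp28, Ier5, Klf1, Klf11 and Dusp9 the 6 lower. Across the 53 members the log2 values of scramble siRNA replicate 2 correlated with r = 0.908 and 0.893 with the Men1 siRNA arrays and with r = 0.890 with scramble siRNA replicate 1. Over all genes the order was the other way, with 0.937 and 0.923 against 0.952 between the controls. With the Men1 siRNA arrays, scramble siRNA replicate 1 had r = 0.818 and 0.831 over the members and 0.905 and 0.908 over all genes. These are correlations across genes of arrays that share the same probes. Without scramble siRNA replicate 1 the sign turned for 9 members, while Klf4 and Klf12 had log2 changes of −2.38 and 1.63. How many of all genes turned sign was not counted.

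**Figure D4:**
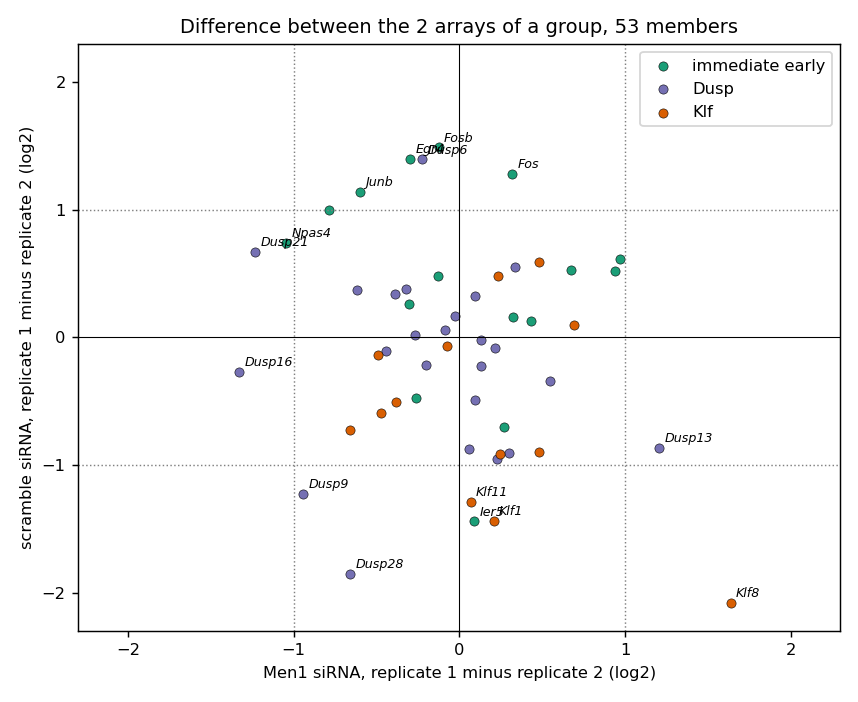
Log2 difference between the 2 arrays of each group for the 53 members, with scramble siRNA on the vertical axis, Men1 siRNA on the horizontal axis and dotted lines at 1 and −1. The 11 members outside the horizontal lines include Fos, Fosb, Egr4, Dusp6 and Junb above and Ier5, Klf11 and Klf8 below.

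No MAP kinase phosphatase proper passed the threshold. All 4 nuclear, inducible ones had a positive log2 change, of at most 0.52. Dusp1, which acts on p38 and JNK, read 667 and 705 against 863 and 745, with 0.23 ± 0.31 (SE, n = 2 and 2). Dusp4 read 92.9 and 71.5 against 105 and 131 and was at least 1.17-fold higher. Dusp2 read 199 and 158 against 186 and 244, and Dusp5, an ERK phosphatase, read 136 and 92.8 against 132 and 104. For these last genes the groups overlapped.

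Among the cytoplasmic ERK phosphatases, Dusp6, a feedback target of ERK, read 736 and 280 against 316 and 370. As with Fos, 1 control array was high and the other matched the knockdown. The log2 change was −0.41 ± 0.52 (SE, n = 2 and 2; limma adjusted p = 0.755) and became 0.29 without scramble siRNA replicate 1. Dusp7 read 440 and 421 against 611 and 648, a tight pair on each side without overlap, with 0.55 ± 0.30 (adjusted p = 0.473 in limma). Dusp9 read 55.9 and 131 against 58.0 and 112.

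Of the JNK and p38 phosphatases, Dusp8, which is expressed in brain, read 650 and 823 against 1581 and 1080. Dusp10 read 137 and 193 against 290 and 272. Both were higher on each Men1 siRNA array, with log2 changes of 0.84 ± 0.36 and 0.79 ± 0.34 (SE, n = 2 and 2; adjusted p = 0.375 for each in limma). Dusp16 read 182 and 219 against 94.3 and 237, with overlap. Of these 10 typical phosphatases 7 were positive (54.5% of all genes were), and 5 had groups that did not overlap, near the 47.5% of all genes. By direction 5 were higher without overlap and 0 lower, against 25.8% and 21.7% of all genes. The direction was not tested for these 10 as a set.

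The atypical Dusp genes, whose proteins lack the MAP kinase binding domain, held the lowest Dusp value. Dusp11, which removes phosphates from the ends of RNA, read 1418 and 1131 against 709 and 665. Both pairs were close, and the log2 change was −0.88 ± 0.32 (SE, n = 2 and 2; limma adjusted p = 0.314). Dusp26, known from neural tissue and neuroblastoma, read 156 and 286 against 419 and 401, a log2 change of 0.96 ± 0.40 (adjusted p = 0.366 in limma) that became 0.52 without scramble siRNA replicate 1. Dusp27, a muscle gene whose product lacks the catalytic cysteine, read 38.9 and 38.5 against 69.0 and 83.1, all under 100, so that its unadjusted p of 0.0233 belongs to values near background.

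Dusp14, Dusp15 and Dusp19 were positive without overlap at their brightest targets, with log2 changes of 0.33, 0.46 and 0.34. Dusp19 had 2 positive and 2 negative targets, and Dusp12 had 3 positive and 1 negative, the negative one being the brightest. Dusp18, Dusp23, Dusp28, Dusp3, Dusp12 and Dusp22 had overlapping groups and log2 changes between −0.26 and 0.51. Dusp3 was the closest to 0 of all 53 members, at 209.9 and 186.6 in the controls against 189.8 and 193.4. Dusp13 and Dusp21 were under 100 on all arrays.

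**Figure D5:**
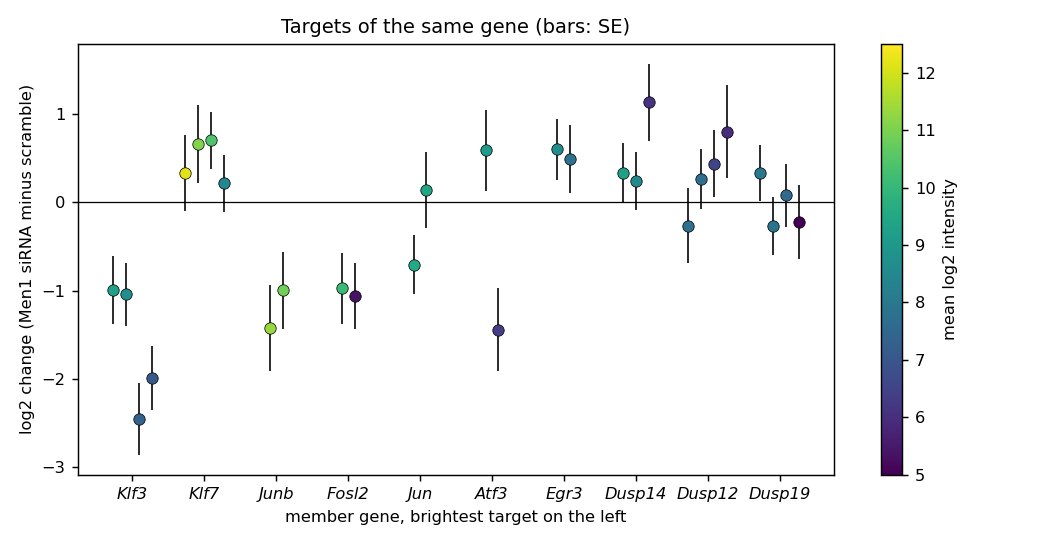
Log2 change (points) with its SE (bars) for each target of 10 members, brightest target on the left and coloured by mean log2 intensity. The 4 targets of Klf3 are all below 0 and the 4 of Klf7 all above, whereas the targets of Jun, Atf3, Dusp12 and Dusp19 fall on both sides.

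Altogether 16 members had several targets and 37 had 1. The targets had 1 sign in 11 of the 16 and both signs in 5, namely Atf3, Dusp12, Dusp19, Dusp5 and Jun. With every target as its own feature, 0 of 78 passed (0.37% of all targets did), and 17 had an unadjusted p under 0.05 in limma (21.8% against 13.8%). Of these 6 were higher (7.69% against 6.23%) and 11 lower (14.1% against 7.59%). Groups did not overlap at 42 targets (53.8% against 46.8%), 25 of them higher (32.1% against 25.4%) and 17 lower (21.8% against 21.4%). A log2 change of at least 1 was met at 3 targets upward (3.85% against 6.09%) and at 7 downward (8.97% against 8.11%), and 45 targets were positive (57.7% against 54.1%). Among all targets 0.0286% were past the threshold and higher, and 0.341% lower.

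Genes around these families were taken as fixed lists without the members, and 0 genes of any of them passed the threshold in limma. Of 21 genes of the ERK cascade 13 were positive (median 0.11) and none had an unadjusted p under 0.05. The smallest were those of the kinase gene Rps6ka1 (−0.58 ± 0.32) and of Hras (0.62 ± 0.35) and Nras (0.59 ± 0.34), the Ras switches at its head. Of 13 ERK feedback genes 7 were positive. The Ras inhibitor gene Nf1 read 150 and 155 against 402 and 419 (1.43 ± 0.30), Phlda1 read 3592 and 3039 against 718 and 1416 (−1.71 ± 0.43), and Errfi1, an inhibitor of the EGF receptor, had −0.99 ± 0.36.

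Of 15 JNK and p38 kinases 10 were negative, 4 of them with an unadjusted p under 0.05, while no positive one had such a p (7.74% of all genes were lower and 6.47% higher at that p). Mapkapk3, a kinase downstream of p38, read 803 and 693 against 170 and 200, a log2 change of −2.02 ± 0.32 (limma adjusted p = 0.0878, n = 2 and 2). Map2k6, which activates p38, had −1.14 ± 0.34, and Mapk12, a p38 kinase itself, −1.22 ± 0.41. Of 14 SRF, ternary complex and CREB genes 8 were negative. Elk3, an SRF partner, read 4209 and 2183 against 731 and 942 (−1.87 ± 0.43), the CREB coactivator Crtc2 had −1.41 ± 0.35 and Atf1 −1.11 ± 0.32.

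Immediate early genes outside the name rule were evenly divided by sign, with 14 of 27 positive and a median of 0.03. Without overlap between groups 9 were lower and 5 higher (21.7% and 25.8% of all genes). At an unadjusted p under 0.05 in limma 4 were lower and 2 higher (7.74% and 6.47% of all genes). Zfp36l1 and Zfp36, which destabilise messenger RNA, had −1.62 ± 0.34 and −1.85 ± 0.54, and the neurotrophin gene Bdnf read 243 and 208 against 583 and 695 (1.501 ± 0.32). Of 16 AP-1 partners 10 were positive, with 1.20 ± 0.30 for the repressor Bach1, −1.19 ± 0.38 for Atf7 and −1.55 ± 0.56 for Nfe2l2. Of 11 Myc network genes 8 were positive. Mycn, the Myc relative amplified in many neuroblastomas, read 877 and 1420 against 1607 and 1465 (0.46 ± 0.37), Mxd3 read between 46.3 and 115 and Mlxipl was under 100 on all arrays.

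Sp factors, the nearest relatives of the Klf family, had 5 of 7 positive and a median of 0.23. Sp7, Sp8 and Sp5 had the smallest p-values among them, but Sp7 read under 100 on 3 arrays, and Sp8 and Sp5 overlapped between groups. The list of Klf and Egr corepressors also held the ubiquitin ligase genes Wwp1 (−0.47) and Fbxw7 (0.27). Of its 10 genes 8 were negative, with a median of −0.33. Among the negative ones Hdac2, at −0.03, was under 100 on all arrays. Ctbp2, the corepressor of Klf3, Klf8 and Klf12, read 5680 and 4098 against 2657 and 2113 (−1.03 ± 0.35), Hdac1 had −0.73 ± 0.33 and Sin3a −0.65 ± 0.31. All of these lists were compared with a median of 0.06 and a share of 54.5% positive over all genes.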

How the data were processed

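RNA from 4 single-colour arrays was analysed, 2 per group. The authors deposited linear intensities, 1 per target, from 3 probes for 44155 of 44170 targets. RMA is named only in the titles of the deposited files, and no source used here gives its settings. An Agilent array is named in the series text, but the labels' labelling protocol is NimbleGen's. The row of 5000 random probes was left out. The authors' value table holds the 20620 targets at 100 or more on all 4 arrays, on the same scale, equal to the array files within a relative tolerance of 1e-04 for 20617 of them once the scramble siRNA columns are exchanged. A symbol is carried by 41886 targets, and the others were set aside; RefSeq's table holds 21583 of the 24204 gene IDs.

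Intensities were taken to log2 with no further normalization. The target with the highest mean stood for a gene, and limma 3.58.1 (R 4.3.3) was fitted over all 24171 genes with Benjamini-Hochberg adjustment, two-sided. An exact permutation test of these groups cannot give a p below 0.333. Where both arrays of a group were under 100, the fold is a bound against 100 or the array's own value, whichever is higher. Precision is limited by having 2 arrays a group, and the fit was tested on simulated data with a spread drawn from the fit. At a limma adjusted p under 0.05 it recovered 0 of 250 log2 changes of 1 and 2 of 250 changes of 2. It recovered 190 of 250 changes of 4 and 237 of 250 changes of 6. A count of 0 members therefore does not show that none changed.

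The members, lists and motifs were chosen with earlier results of these data known. Full statistics went to the 12 members with the smallest unadjusted p and to Fos, Jun, Myc and Dusp6, and up to 3 genes were named per pathway list. Replicate 1 minus 2, numbered as labelled, correlated with r = −0.175 between groups across genes, and the sign turns if the scramble siRNA arrays are exchanged as in the value table, so the numbers were not taken to pair the arrays. Alternatives were the replicate block, each array left out, 3 scalings, the value table, other targets, priors, a filter, a pseudocount and a floor. Genes of the name rule without a target are not analysed here. Tables and figures were made in Python 3.11.15 with matplotlib 3.10.9, pandas 2.3.3 and numpy 2.4.6.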

Additional observations from a re-analysis of the deposited data

How the results depend on the processing

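The 0 members past the threshold in limma became 2, Klf4 and Klf12, with a trended prior (711 of all genes passed, against 94) and in the value table (418 of 12701 genes), and stayed 0 under the other 15 alternatives. Those include each array left out in turn and the crossed replicate block, where 0 of all genes passed. With the replicate block, 4 of 53 members had an unadjusted p under 0.05 in limma instead of 11. Of all genes 11.1% had one, instead of 14.2%. The arrays carry only a shared number, so this block is no evidence on the size of a change. With crossed numbers as the block, added after seeing the data, 11 members and 16.5% of all genes had one. Leaving out 1 array gave 2 to 12 such members, the fewest without scramble siRNA replicate 1, and 3 without Men1 siRNA replicate 2. Counting every target gave 17 of 78 targets with an unadjusted p under 0.05 in limma, against 13.8% of all targets. Groups did not overlap at 42 of the 78 targets instead of at 27 genes (46.8% of all targets and 47.5% of all genes). Over all genes, 252 passed with a pseudocount of 32, 155 of 41886 with every target, 56 without genes under 100 on all arrays, and 45 with a floor at 100. The value table held only 34 of the 53 members, so its 2 past the threshold are out of 34. The median log2 change of the members ran from 0.01 (floor at 100, 48 members) to 0.25 (value table, 34 members). It was 0.11 to 0.21 when an array was left out. Of 265 values of the 16 members given full statistics, 2 had the opposite sign, both without scramble siRNA replicate 1: Fos at 0.36 and Dusp6 at 0.29. With an array left out Fos ran from −0.92 to 0.36 and Dusp6 from −1.11 to 0.29. Non-overlap of groups was not recomputed with an array left out, since 1 array then stands for a group.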
